A study of Homo sapiens with 6 samples.

Results

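The 9 genes described here encode RNA-binding proteins that recognise AU-rich, GU-rich, U-rich or Pumilio elements in the 3′ untranslated regions (3′ UTRs) of mRNAs. They are ZFP36, ZFP36L1, ZFP36L2, KHSRP, ELAVL1, TIA1, TIAL1, PUM2 and CELF1. They were picked by symbol for what their proteins bind, not for a measured value, though earlier results of these data were known. All 9 had a row in both the count table of 28491 genes and the FPKM table of 28244 genes. HCT116, a human colorectal carcinoma cell line, was transfected with a plasmid carrying RBM47 transcript NM_019027 (RBM47-OE, 3 libraries) or with a control plasmid (NC, 3 libraries). Poly(A) RNA was sequenced 48 h later. The sample descriptions and the study's methods name different vectors (pcDNA3.1-3xFlag and pIRES-hrGFP-1a) and different culture media. The study's methods describe no selection of transfected cells, so each library may have pooled cells with and without the plasmid. Fewer cells making a transcript could not be told apart from less of it per cell. Nothing stated that the libraries of a group came from separate cultures, so the p-values measure the spread between these libraries, which may be technical. The comparison addressed whether raising RBM47, itself a binder of 3′ UTRs, was accompanied by changes in the mRNAs of other such binders.

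AU-rich elements are runs of the pentamer AUUUA in a U-rich setting, and they mark the mRNAs of many cytokines, early response genes and cell cycle regulators for rapid removal. ZFP36 (tristetraprolin), ZFP36L1 and ZFP36L2 bind these elements through zinc fingers and recruit the CCR4-NOT deadenylase, whereas KHSRP recruits decay enzymes through its KH domains, and ELAVL1 (HuR) binds overlapping sites and protects the mRNA. TIA1 and TIAL1 bind U-rich sequence and silence translation, PUM2 binds the motif TGTANATA (U for T in RNA) and recruits deadenylases, and CELF1 binds GU-rich elements and promotes deadenylation.

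Several of these mRNAs carry the elements that the proteins themselves bind. Canonical 3′ UTRs of GENCODE release 44 on GRCh38 were searched on the sense strand for ATTTA, for the longer TTATTTA, each copy of which also holds an ATTTA, and for TGTANATA. The stretches of 30 bases that follow are shown because they hold the densest group of ATTTA copies, or a Pumilio motif, in the 3′ UTR of a gene that the results turn on. They lie at chr19:39409183-39409212 (plus strand) for ZFP36, chr14:68788348-68788377 (minus strand) for ZFP36L1, chr19:7961840-7961869 (minus strand) for ELAVL1, chr2:70212598-70212627 (minus strand) for TIA1, chr10:119574859-119574888 (minus strand) for TIAL1 and chr2:20251142-20251171 (minus strand) for PUM2. Each is printed 5′ to 3′ on the strand of its gene, with the motif in capitals.
ZFP36: tgggccctttATTTAtgacgactttATTTA
ZFP36L1: aagcttATTTAacttatcaaaacgtATTTA
ELAVL1: tttATTTAtacctATTTAtgtATTTATTTA
TIA1: tgcaaatgtcagatacaatgtATTTATTTA
TIAL1: atgatacatatTGTAAATAttcaataacta
PUM2: gtttatagagaTGTATATAgaattatagtc

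The ELAVL1 stretch held 4 copies of ATTTA within 30 bases, and the other 3 stretches chosen for ATTTA held 2 each. Over the whole 3′ UTR, ZFP36 had 5 copies of ATTTA in 708 bases, and 5.95% of 1867 3′ UTRs of 0.8 to 1.25 times that length had at least as many. ZFP36L1 had 8 copies in 1871 bases (14.4% of 2406 3′ UTRs of similar length had at least as many), and TIA1 had 13 in 3275 bases (14.4% of 2072). ELAVL1 also had 13 copies, in 4910 bases, a number that 38.7% of 1325 3′ UTRs of similar length reached. KHSRP stood at the other end with 1 copy in 1922 bases, where 88.0% of 2388 similar 3′ UTRs had 1 or more. PUM2 and TIAL1 each had 2 copies of TGTANATA, which 14.8% of 2257 and 11.4% of 2350 3′ UTRs of similar length reached, and the other 7 genes had 0. A match to these letters is a description of the sequence and not a bound site.

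The libraries held between 26792409 and 35477983 counts on genes, and 16260 genes passed the filter on low counts, all 9 binding protein genes among them. RBM47 lay at 1.91, 2.33 and 1.94 FPKM in NC and at 131.3, 130.41 and 127.04 FPKM in RBM47-OE, a log2 fold change of 5.90 (SE 0.096, adjusted p = 1.7e-25, edgeR quasi-likelihood test with Benjamini-Hochberg adjustment), so every library matched its label. FPKM is the number of fragments scaled by transcript length and by the mapped fragments of the library, and it is the only scale used here to set 1 gene against another. Of 10 colorectal epithelial markers, EPCAM, KRT8, KRT18, KRT19, CDH1 and CDX2 reached 1 FPKM in every library, while VIL1, CDX1, CDH17 and LGALS4 stayed below it. Of 12 markers of immune, stromal, endothelial, liver, glial and muscle cells, only COL1A1 reached 1 FPKM, and their summed level lay between 1.79 and 2.68 FPKM.

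In all libraries together, the log2 fold change of a gene moved with its exonic GC content, with AU-rich transcripts higher and GC-rich transcripts lower in RBM47-OE. Fold changes are therefore given with and without a GC offset, a correction that removes from each library the smooth trend of its counts on exonic GC content. The part that this trend has in the results for the 9 genes was not tested, and a change in AU-rich mRNAs cannot be told apart here from a library effect of base composition. In the same way, an effect on all AU-rich mRNAs would be removed by the offset together with any library effect.

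The 9 mRNAs spanned a 38-fold range in NC. KHSRP was highest, at 81.9 ± 2.12 FPKM (SD, n = 3), above 97.3% of protein-coding genes. ZFP36L1 followed at 36.1 ± 1.97 FPKM, ZFP36 at 28.7 ± 1.19 FPKM and ELAVL1 at 23.3 ± 0.775 FPKM. The silencers and the Pumilio and GU-rich binders were lower, with PUM2 at 12.8 ± 0.155 FPKM, CELF1 at 11.1 ± 0.306 FPKM and TIAL1 at 10.3 ± 0.144 FPKM. ZFP36L2 (8.86 ± 0.225 FPKM) and TIA1 (2.14 ± 0.122 FPKM) closed the order. In NC no neighbours in this order overlapped over the 3 libraries. In RBM47-OE the order was the same except that CELF1 and TIAL1 overlapped, at means of 12.2 and 12.5 FPKM.

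**Figure D1:**
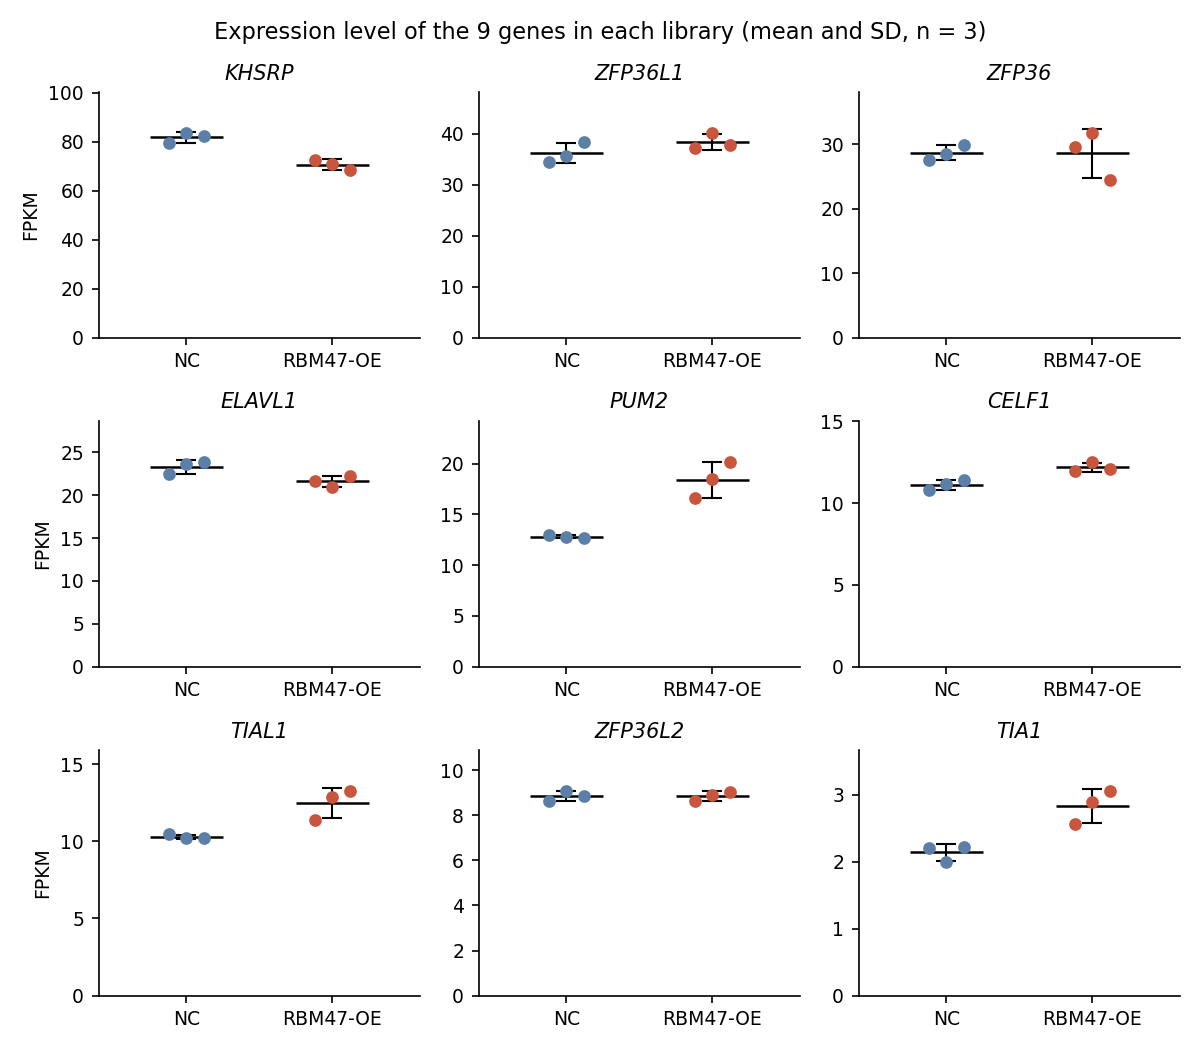
Expression level in FPKM of the 9 genes in each of the 6 libraries, ordered by the NC mean, with points for libraries, a line for the group mean and bars for the SD (n = 3). PUM2, TIA1, TIAL1 and CELF1 are separated upward in RBM47-OE and KHSRP and ELAVL1 downward, whereas the points of ZFP36, ZFP36L1 and ZFP36L2 overlap.

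Of the 9 genes, 5 changed at an adjusted p under 0.05 in edgeR without the GC offset. PUM2, TIA1 and TIAL1 rose, and KHSRP and ELAVL1 fell. Among all genes tested, 19.1% rose and 16.9% fell by the same criterion, so 3 and 2 of 9 are set against a background in which more than 1 gene in 3 was called. With the GC offset applied, only PUM2 rose and only ELAVL1 fell, against 6% and 8.46% of all genes. At the thresholds of the study's methods (unadjusted p under 0.01 and a fold change over 1.5), 0 of the 9 were called, against 1.51% of genes higher and 0.873% lower. The largest change of the 9, in PUM2, was 37.1% upward. The median log2 fold change of the 9 was 0.01, beside 0.00 for all genes. On the log2 CPM scale, which gives counts relative to the normalised library size, the 2 groups did not overlap for 4 genes that were higher and 3 that were lower, where 23.2% and 23.4% of all genes behaved in the same way.

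**Figure D2:**
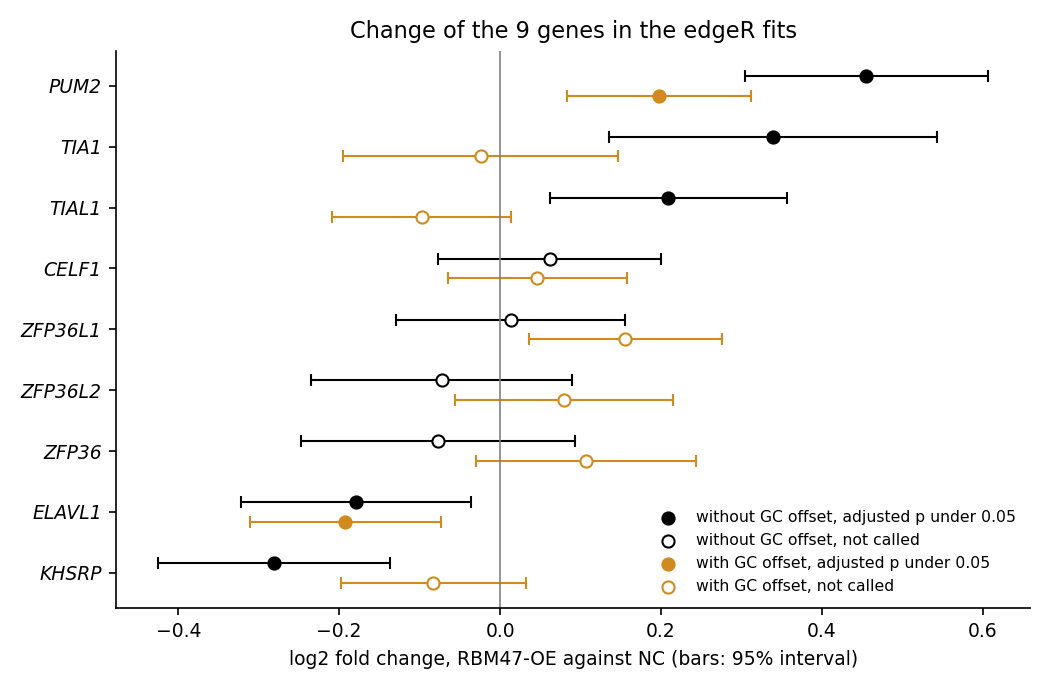
Log2 fold change of RBM47-OE against NC for the 9 genes in edgeR, with 95% intervals, without the GC offset (black) and with it (orange); filled points have an adjusted p under 0.05. PUM2 keeps its sign and call at 0.46 and 0.20 and ELAVL1 at −0.18 and −0.19, while TIA1 and TIAL1 move from above 0 to −0.02 and −0.10.

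The ZFP36 family, the AU-rich binders that trigger decay, showed no change that passed the test. ZFP36 lay at 27.56, 28.56 and 29.93 FPKM in NC and at 29.56, 31.75 and 24.39 FPKM in RBM47-OE. The RBM47-OE values enclosed those of NC, with the third replicate below and the second above all of them. The log2 fold change was −0.08 (95% interval −0.25 to 0.09, adjusted p = 0.50, edgeR), and with the GC offset it was 0.11 (adjusted p = 0.31). ZFP36L1, the most abundant of the family, lay at 34.42, 35.66 and 38.28 FPKM in NC and at 37.09, 40.13 and 37.71 FPKM in RBM47-OE. These groups overlapped, and the log2 fold change of 0.01 had an interval from −0.13 to 0.16. For ZFP36L1 the value with the offset was 0.16 (edgeR adjusted p = 0.075), and it was called in 1 of 25 alternative settings, with the GC offset and without RBM47-OE replicate 1 (adjusted p = 0.031). ZFP36L2 had nearly equal levels, 8.63, 9.08 and 8.86 FPKM in NC and 8.63, 8.90 and 9.03 FPKM in RBM47-OE, with a log2 fold change of −0.07 (interval −0.24 to 0.09). On the log2 CPM scale the ZFP36L2 groups did not overlap and were lower in RBM47-OE, by 0.04 to 0.10 below the NC mean. That scale uses TMM normalisation factors, 0.9751 to 0.9815 in NC and 1.0021 to 1.0515 in RBM47-OE, which FPKM does not. The 2 scales therefore differ for every gene and not for ZFP36L2 alone. With library totals in place of these factors, the log2 fold change of ZFP36L2 was −0.01 (adjusted p = 0.93, edgeR). The intervals place any change of the 3 mRNAs without the offset within 0.25 on the log2 scale.

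KHSRP, a KH-domain protein that brings decay enzymes to AU-rich mRNAs and also acts in splicing and microRNA maturation, fell. Its level was 79.54, 83.67 and 82.40 FPKM in NC and 72.75, 71.14 and 68.37 FPKM in RBM47-OE. All 3 RBM47-OE libraries lay below all 3 NC libraries. The log2 fold change was −0.28 (SE 0.070, adjusted p = 0.0029, edgeR), a level 17.7% lower. KHSRP had the highest exonic GC content of the 9, 59.6%, and the 999 genes within 1 percentage point of it had a median log2 fold change of −0.21. The call held in every alternative without a GC offset. The offset brought the value to −0.08 (edgeR adjusted p = 0.36). Because KHSRP was so abundant, its share of the summed FPKM of the 9 genes went from 38.1% to 33.1%, while the sum itself averaged 215.2 FPKM in NC and 214.1 FPKM in RBM47-OE.

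ELAVL1, the stabilising AU-rich binder, was also lower in RBM47-OE. It lay at 22.42, 23.60 and 23.88 FPKM in NC and at 21.71, 20.94 and 22.20 FPKM in RBM47-OE, so the groups came within 0.22 FPKM of each other without overlapping. The log2 fold change was −0.18 (SE 0.069, adjusted p = 0.046, edgeR), and with the GC offset it was −0.19 (adjusted p = 0.027). At its exonic GC content of 47.5%, the 1210 genes within 1 percentage point had a median log2 fold change of 0.02. The 10th and 90th percentiles of those genes were −0.30 and 0.34, and ELAVL1 lay between them. The call was close to the threshold in both fits. The adjusted p was 0.058 with RLE factors, 0.15 with library totals, 0.093 without the filter on low counts, 0.11 with a replicate block and 0.17 to 0.18 in the 3 limma fits, and without NC replicates 1, 2 or 3 or RBM47-OE replicate 2 it lay between 0.091 and 0.18. In the fit with the GC offset, leaving out any of the same libraries also gave adjusted p-values above 0.05, up to 0.14. ELAVL1 was below NC in all 25 alternative settings, by 0.10 to 0.25, and called in 10 of them. An annotated lncRNA on the opposite strand covers 890 bases of ELAVL1, and whether counting used strand was not given in the sources used here.

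TIA1 and TIAL1, closely related proteins that bind U-rich sequence, repress translation and gather in stress granules, both rose without the GC offset. TIA1 lay at 2.20, 2.0 and 2.22 FPKM in NC and at 2.56, 2.90 and 3.06 FPKM in RBM47-OE, with no overlap and a log2 fold change of 0.34 (SE 0.099, adjusted p = 0.0093, edgeR). TIAL1 lay at 10.45, 10.23 and 10.18 FPKM in NC and at 11.41, 12.84 and 13.26 FPKM in RBM47-OE, again with no overlap, and its log2 fold change was 0.21 (SE 0.072, adjusted p = 0.024, edgeR). For both genes RBM47-OE replicate 1 was the nearest of the 3 to NC. These were the most AU-rich of the 9 transcripts, at 35.1% exonic GC for TIA1 and 39.2% for TIAL1. The 262 genes within 1 percentage point of TIA1 had a median log2 fold change of 0.39, and the 1280 genes near TIAL1 had 0.33, so both genes rose less than the middle gene of their own base composition. Values with the offset were −0.02 for TIA1 (adjusted p = 0.89, edgeR) and −0.10 for TIAL1 (adjusted p = 0.25). The TIA1 call was lost without NC replicate 2 (adjusted p = 0.079, edgeR) and in limma without a filter (0.059), and the TIAL1 call was lost with the replicate block (0.057), with a length offset (0.17), in limma without a filter (0.050) and without any 1 of 5 libraries, all but RBM47-OE replicate 1 (up to 0.11). The annotation places C2orf42 on the same strand over 39172 bases of TIA1, and C2orf42 itself had a log2 fold change of 0.19 (adjusted p = 0.27, edgeR).

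PUM2, a Pumilio protein that recruits deadenylases to mRNAs with the motif TGTANATA, changed most of the 9. It lay at 12.94, 12.79 and 12.63 FPKM in NC and at 16.62, 18.51 and 20.17 FPKM in RBM47-OE. The groups were 3.68 FPKM apart at their nearest, and RBM47-OE replicate 1 was again the nearest to NC. The log2 fold change was 0.46 (SE 0.074, adjusted p = 8.6e-05, edgeR). At 41.1% exonic GC, the 1354 genes within 1 percentage point had a median of 0.27 and a 90th percentile of 0.51, so PUM2 rose more than the middle gene of its composition. Its log2 fold change with the offset was 0.20 (adjusted p = 0.019, edgeR), a level 14.7% higher. The call held in every alternative without the GC offset. With the offset it was lost without any 1 NC replicate or without RBM47-OE replicate 3, at adjusted p-values from 0.064 to 0.090.

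CELF1, which binds GU-rich elements and recruits a deadenylase, lay at 10.80, 11.15 and 11.41 FPKM in NC and at 11.97, 12.52 and 12.10 FPKM in RBM47-OE. The FPKM groups did not overlap, but the log2 fold change in the fit was only 0.06 (interval −0.08 to 0.20, adjusted p = 0.51, edgeR). The offset left it at 0.05, and library totals in place of the TMM factors gave 0.12 (adjusted p = 0.13, edgeR). On the log2 CPM scale all 3 RBM47-OE libraries were also above NC, by 0.05 to 0.07. CELF1 overlaps NDUFS3 by 234 bases and PTPMT1 by 140 bases on the opposite strand, and neither of these genes passed the test. The pseudogene RN7SL652P lies over 300 bases of CELF1 on the same strand and did not pass the filter on low counts.

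**Figure D3:**
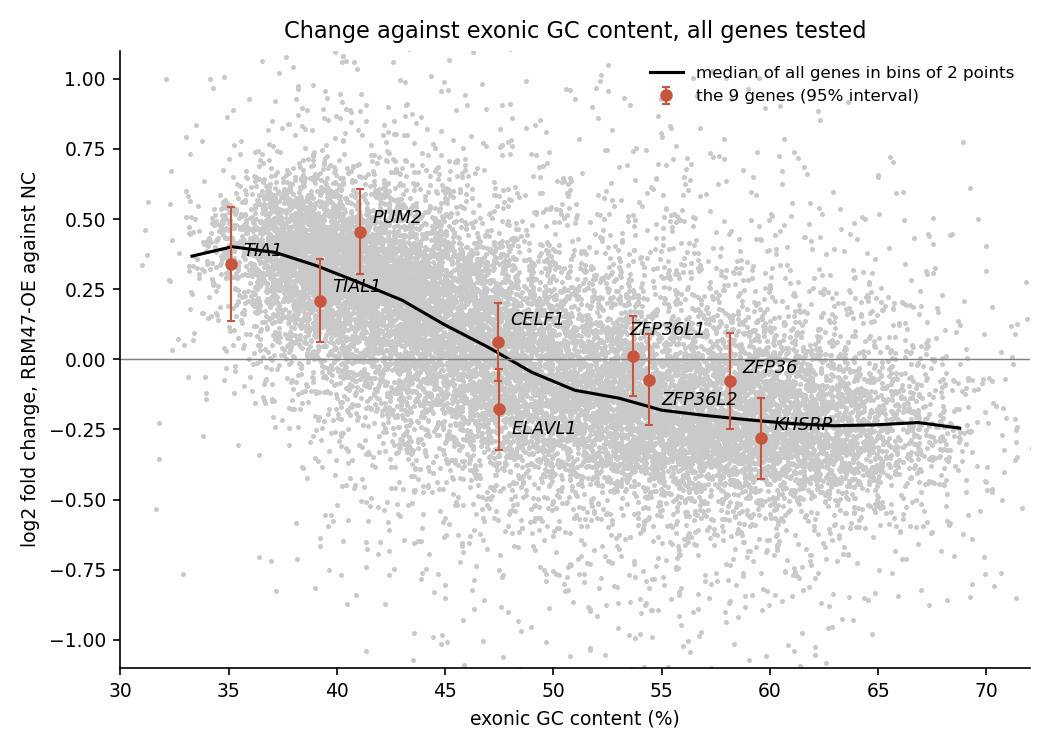
Log2 fold change in edgeR without the GC offset against exonic GC content in percent for 16233 genes with a GC value (grey, 122 of them outside the axes), the median in bins of 2 percentage points (line), and the 9 genes with 95% intervals (red). TIA1, CELF1 and KHSRP lie near the line, PUM2 above it at 0.46, ELAVL1 and TIAL1 below it at −0.18 and 0.21, and the ZFP36 family above it.

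The scatter of fold change against GC content sets the 9 genes in order of composition. ZFP36, ZFP36L1 and ZFP36L2, with 53.7% to 58.1% exonic GC, had log2 fold changes of −0.08, 0.01 and −0.07 where the median genes of their composition had −0.21, −0.16 and −0.17. Their flat levels thus lay above these medians, and the sign for ZFP36 and ZFP36L2 turned positive with the offset, without passing the test. Each still lay between the 10th and 90th percentiles of genes of its composition. These were −0.44 and 0.09 for ZFP36, −0.41 and 0.15 for ZFP36L1, and −0.42 and 0.17 for ZFP36L2. CELF1, at 47.4%, had 0.06 beside a median of 0.03.

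Ratios of FPKM within a library do not depend on library size, but they were not corrected for the GC trend. TIA1 and TIAL1 differ in exonic GC content (35.1% and 39.2%), as do ELAVL1 (47.5%) and the ZFP36 family (53.7% to 58.1%). The ratios were compared with an exact two-sided permutation test, adjusted over 5 ratios, in which 3 against 3 libraries cannot go below p = 0.10. The ratio of TIA1 to TIAL1 was 0.211, 0.196 and 0.218 in NC and 0.224, 0.226 and 0.231 in RBM47-OE, without overlap (exact permutation p = 0.10, adjusted 0.25). The balance of ELAVL1 against the summed ZFP36 family, a stabiliser over destabilisers, averaged 0.316 in NC and 0.287 in RBM47-OE, and the groups overlapped through RBM47-OE replicate 3 (exact permutation p = 0.20, adjusted 0.33). The ratios of ZFP36 and of ZFP36L2 to ZFP36L1 also overlapped (exact permutation p = 0.50 and 0.30). None of these ratios could have passed the threshold in this design.

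The closest relatives of the 9 were examined next. Of 12 paralogs listed, 11 were in the count table and 5 passed the filter, of which 2 rose and 0 fell without the GC offset, where 19.1% of all genes rose and 16.9% fell. The median log2 fold change of the 5 was 0.20, beside 0.00 for all genes. The neuronal ELAVL3 and ELAVL4 and the paralogs CELF2, CELF3, CELF4 and CELF6 had at most 13 counts in any library. FUBP3, a KH-domain relative of KHSRP, rose by a log2 fold change of 0.20 (adjusted p = 0.024, edgeR) and had 0.16 with the GC offset (adjusted p = 0.048). Its groups did not overlap in FPKM, but the call was lost in 12 of 25 alternative settings, the replicate block and the fits without any 1 NC replicate among them, at adjusted p-values up to 0.25. PUM3, a nucleolar Pumilio relative, had 0.32 (adjusted p = 0.045, edgeR), with overlapping groups of 7.84, 6.49 and 6.60 FPKM in NC and 6.67, 9.81 and 11.05 FPKM in RBM47-OE. Its call held in only 8 of 25 alternative settings, its value with 1 library left out ran from 0.16 (RBM47-OE replicate 3 left out) to 0.50 (replicate 1 of the same group), and with the GC offset it was 0.05. FUBP1, the other FUBP relative measured, had 0.09 without the offset and −0.28 with it (adjusted p = 0.013, edgeR). CELF5, at 32 to 75 counts, had 0.50 (adjusted p = 0.14, edgeR).

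The other lists, of binders, effectors and known targets, were written from general knowledge after earlier results of these data were known, and they are described by counts and medians. Of 47 other 3′ UTR binders tested, 12 rose and 13 fell, beside shares of 19.1% and 16.9% over all genes, with a median log2 fold change of 0.05. The largest rises were in MBNL2 (0.55), which binds CUG-like repeats, STAU2 (0.50), which binds double-stranded RNA, and FXR1 (0.46), a fragile X relative. The largest falls were in ZC3H12A (−0.56), an endonuclease that cuts stem-loops of inflammatory mRNAs, RBM38 (−0.39), a binder of U-rich elements, and MSI1 (−0.36), a translational regulator of progenitor cells. After the offset 5 of the 47 rose and 5 fell, where 6% and 8.46% of all genes did, and of these 6 genes only MBNL2 kept its call (0.21, adjusted p = 0.027, edgeR).

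The machinery that such proteins recruit was counted likewise. Of 34 decay effectors and regulatory kinases tested, 10 rose and 9 fell (19.1% and 16.9% of all genes), with a median of 0.05, and with the GC offset 2 rose and 8 fell (6% and 8.46% of all genes). XRN1, the cytoplasmic exonuclease that degrades decapped mRNA, rose by 0.61 and was the 1 gene of the list past the study's thresholds. CNOT10 and CNOT7, subunits of the deadenylase recruited by the ZFP36 family and PUM2, rose by 0.43 and 0.42. EXOSC4 and EXOSC5, core subunits of the exosome recruited by KHSRP, fell by 0.50 and 0.31, and MAPKAPK3, a stress kinase whose family phosphorylates ZFP36, fell by 0.44. With the offset, XRN1 (0.26), CNOT10 (0.30), EXOSC4 (−0.31) and MAPKAPK3 (−0.25) kept their calls in edgeR, and CNOT7 (0.06) and EXOSC5 (−0.15) lost them.

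Among 60 tested mRNAs known for AU-rich elements, 10 rose and 18 fell (19.1% and 16.9% of all genes), and the median was −0.11 beside 0.00 for all genes. This list holds IL1A, BIRC3 and CCN1, which the study named among the changed genes of these libraries, and it chose CCN1 for RT-qPCR. The counts of the list are therefore not independent evidence of a direction. CCN1, a matrix protein made in the early growth response, fell most, from 4.47, 4.20 and 3.77 FPKM in NC to 1.84, 2.78 and 2.08 FPKM in RBM47-OE, a log2 fold change of −0.97 without the offset and −0.95 with it. CCNE1, a G1/S cyclin, had −0.57 and −0.45, and JUN, an early response transcription factor, had −0.54 and −0.38, all of them called in both fits. In the other direction, IL1A, an inflammatory cytokine, had only 3, 5 and 3 counts in NC and 16, 19 and 12 in RBM47-OE, and its fitted log2 fold change of 1.99 (adjusted p = 0.0042, edgeR) rests on these few reads. BIRC3 and BIRC2, inhibitors of apoptosis, rose by 0.63 and 0.52, and with the offset had 0.27 (adjusted p = 0.11, edgeR) and 0.21 (adjusted p = 0.029). With the offset 6 of the 60 rose and 10 fell (6% and 8.46% of all genes), and the median was −0.002.

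Known Pumilio targets were counted in the same way. Of 20 tested, 10 rose and 2 fell (19.1% and 16.9% of all genes), with a median of 0.24. PPP1CB, a phosphatase catalytic subunit, rose by 0.55, BRIP1, a DNA helicase, by 0.50, and the long non-coding RNA NORAD, which binds many Pumilio molecules, by 0.43. Among those that fell, PCNA, the sliding clamp of DNA replication, had −0.20 (adjusted p = 0.040, edgeR). Its groups overlapped in FPKM though not in log2 CPM, and it was called in 14 of 25 alternative settings. NORAD lay at 37.78, 37.29 and 42.2 FPKM in NC and at 51.43, 60.16 and 54.9 FPKM in RBM47-OE. The median exonic GC content of the list was 41.6%, close to that of PUM2 itself, and with the GC offset 2 rose and 5 fell (6% and 8.46% of all genes), with a median of 0.03. With the offset PPP1CB (0.24) and NORAD (0.20) were still higher in edgeR and PCNA (−0.30) lower, while BRIP1 (0.16) was not called.

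**Figure D4:**
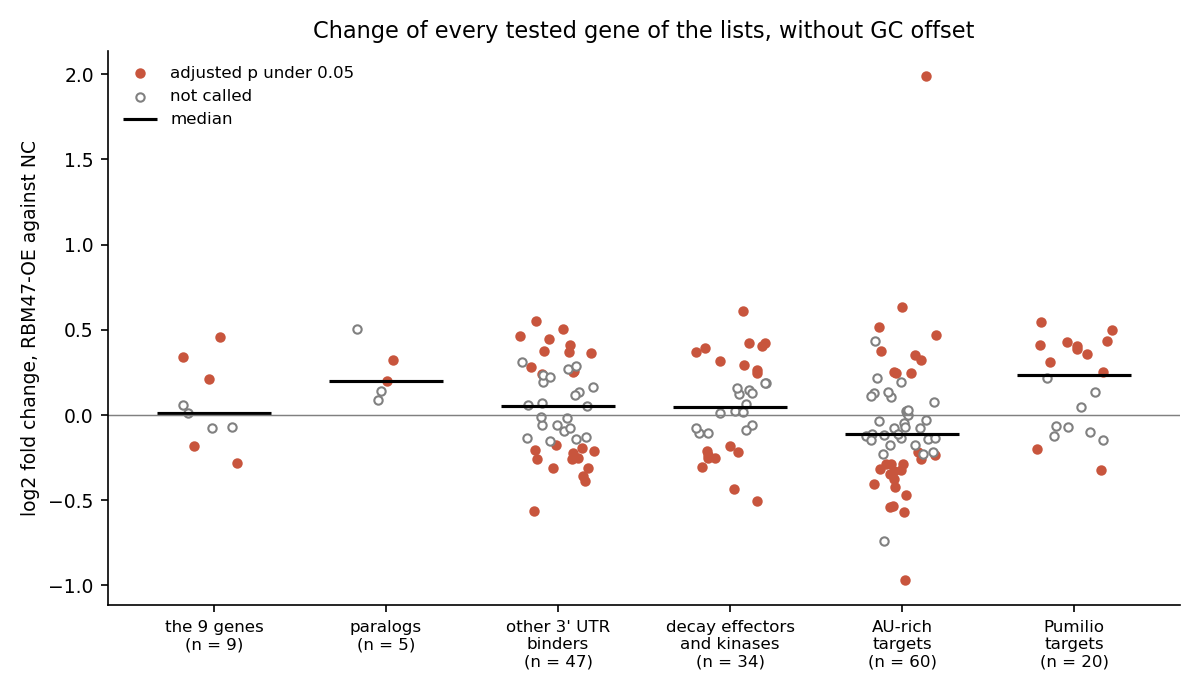
Log2 fold change in edgeR without the GC offset for every tested gene of each list, with filled points at an adjusted p under 0.05 and a line at the list's median. The lists of binders and of effectors spread on both sides of 0, the AU-rich targets have a median of −0.11 and the Pumilio targets of 0.24.

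All tested genes with an annotated 3′ UTR were then grouped by the AU-rich and Pumilio motifs above. The GU-rich and U-rich elements of CELF1, TIA1 and TIAL1 were not searched. Genes with 0, 1, 2 and 3 or more copies of ATTTA had median log2 fold changes of −0.19, −0.11, −0.06 and 0.21, over 3783, 2069, 1391 and 5953 genes. Genes with 1 or more TTATTTA had a median of 0.21 against −0.08 without, and genes with 1 or more TGTANATA had 0.19 against −0.07. Without the GC offset, 40.6% of genes with 3 or more ATTTA were higher and 5.71% lower, whereas 4.41% and 36.1% of genes without the motif were. The classes also differed in composition, with a median exonic GC content of 42.9% at 3 or more copies and 57.1% at 0, and in median 3′ UTR length, 2681 and 378 bases.

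These differences were smaller after GC correction. The difference between the medians of the outer ATTTA classes went from 0.40 to 0.09, that for TTATTTA from 0.29 to 0.05 and that for TGTANATA from 0.26 to 0.05. Among 3′ UTRs of 1000 to 2000 bases without the offset, genes with 3 or more ATTTA had a median of 0.20 and those with 0 had −0.19. There the medians with and without TTATTTA were 0.17 and −0.05, and those with and without TGTANATA were 0.14 and −0.05. With the offset, the 3 differences in these 3′ UTRs were 0.06, 0.04 and 0.03. For genes with 3 or more ATTTA, the median difference from NC was 0.11 in RBM47-OE replicate 1 and 0.25 in replicates 2 and 3, so the size of the shift varied within the group. No test was made of these class medians.

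**Figure D5:**
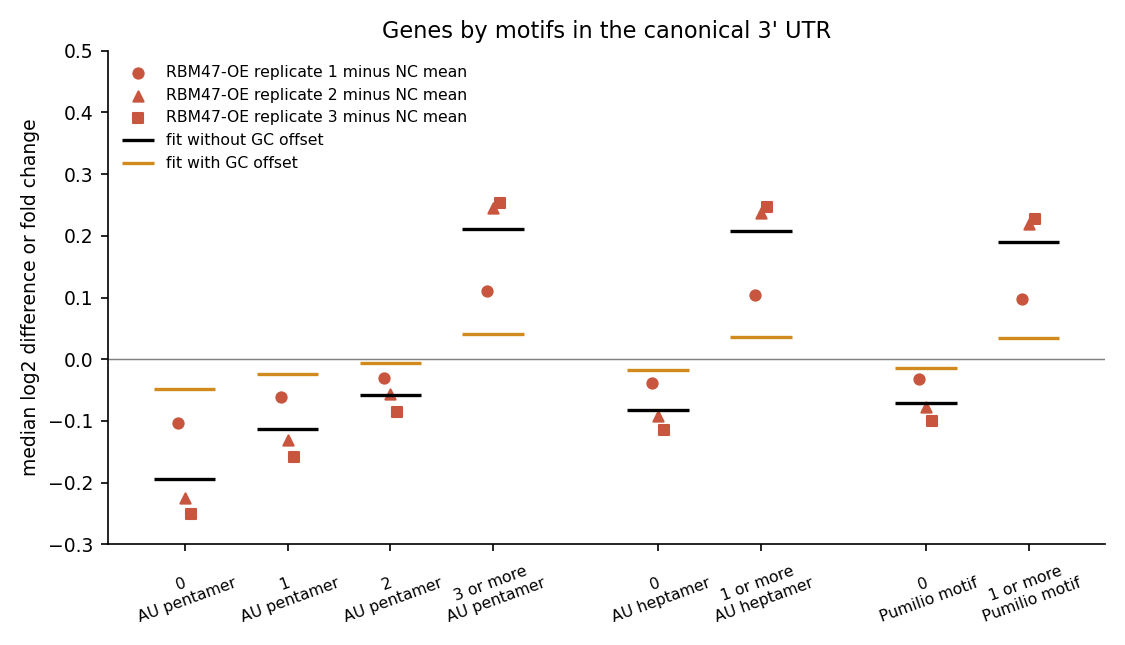
Median log2 difference from the NC mean in each RBM47-OE library (points), and median log2 fold change in edgeR without (black) and with (orange) the GC offset, for genes by copies of the AU pentamer ATTTA, the AU heptamer TTATTTA and the Pumilio motif TGTANATA in the canonical 3′ UTR. The black lines climb from −0.19 to 0.21 over the pentamer classes, and the orange lines stay between −0.05 and 0.04.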

How the data were processed

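The count table and the FPKM table as deposited have 1 value per gene and library. Per the study's methods and notes, the authors cleaned the reads, mapped them with HISAT2 to the GRCh38 genome and kept unique alignments for counts per gene, to which no normalisation was applied. FPKM values by the authors scale the fragments of a gene by its length and by what mapped in that library. The annotation release and the use of strand in counting were not given in the sources used here. The totals per library, 26792409 to 35477983 counts, limit precision mainly for genes with few counts.

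Counts were tested with edgeR 4.0.16 (R 4.3.3; filterByExpr with a minimum count of 10 and total of 15, TMM factors, quasi-likelihood test, condition as the only term), with Benjamini-Hochberg adjustment over 16260 genes. The GC offset was a loess curve (span 0.3) on exonic GC content in each library. Log2 CPM used a prior count of 2. Exons, 3′ UTRs and coordinates came from GENCODE 44, which matched 28402 of 28477 gene identifiers. Alternatives were DESeq2 1.42.0, limma 3.58.1 on log2(FPKM + 1) and log2(FPKM + 0.1), RLE factors, library totals, other filters, a length offset, a replicate block and each library left out. The edgeR fits with and without the GC offset and the block, DESeq2 and limma were tested on simulated data, with and without a GC trend.

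The 9 genes and all lists were chosen with earlier results of these data known. Beside the 9 genes and RBM47, the text names every paralog past the filter and the 3 genes most like PUM2 and KHSRP. It also names up to 3 genes of each list in each direction with the largest change. These were taken among genes with an adjusted p under 0.05 and groups that did not overlap in log2 CPM. Paralogs under the filter, markers, overlapping genes and list members singled out otherwise were named outside this rule. A few genes that the rule names are not reported here.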

Additional observations from a re-analysis of the deposited data

How the results depend on the processing

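RBM47 kept its direction and call in all 25 alternative settings, with a log2 fold change from 5.42 to 5.998, and 0 of the 9 genes passed the study's thresholds in any. Shares over all genes were counted only for the edgeR fits given above, without and with the GC offset. The counts below from other settings have no such share beside them and cannot be set apart from a change in the number of genes called. Without the filter, with RLE factors and with library totals, 1 of the 9 fell, and the same holds for limma on log2(FPKM + 1) and log2(FPKM + 0.1). In limma without the filter 1 rose and 1 fell. Whether same-numbered libraries were prepared together was not given in the sources used here. Their deviations were not positively correlated (−0.06, −0.01 and −0.02). With the replicate block 1 of the 9 fell, 1 paralog rose and 1 Pumilio target fell. Pumilio targets that fell also numbered 1 with RLE factors, library totals and both filtered limma fits, and 0 in unfiltered limma, in which 6 rose. Other binders that fell numbered 7 in filtered and 1 in unfiltered limma, and decay effectors that fell numbered 4 with library totals and in every limma fit. AU-rich targets that rose and fell numbered 5 and 8 in unfiltered limma. Paralogs that rose numbered 1 in both DESeq2 fits and with the length offset. The GC offset gave 1 of the 9 higher and 1 lower, paralogs 1 and 1, binders 5 and 5, effectors 2 higher, AU-rich targets 6 and 10 and Pumilio targets 2 and 5. The GC offset and replicate block together gave 1 and 1 of the 9, paralogs 0 and 1, binders 6 and 5, effectors 2 higher, AU-rich targets 11 lower and Pumilio targets 2 and 5. Differences of medians for the AU pentamer, the AU heptamer and the Pumilio motif were 0.090, 0.054 and 0.050 with the GC offset, and 0.064, 0.035 and 0.031 with the offset in 3′ UTRs of limited length. The length limit and the GC offset with each library left out were chosen after seeing the data.

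Log2 fold changes that turned sign with the GC offset, without and with the block, were those of ZFP36 (0.107 and 0.104), ZFP36L2 (0.080 and 0.080), TIA1 (−0.024 and −0.025), TIAL1 (−0.098 and −0.098) and FUBP1 (−0.275 and −0.283). The length offset turned ZFP36 (0.0077), ZFP36L1 (−0.041) and CELF1 (−0.050). Leaving out 1 library turned ZFP36 without RBM47-OE replicate 3 (range over the 6 libraries left out −0.139 to 0.022), ZFP36L1 without NC replicate 1 or RBM47-OE replicate 2 (−0.017 to 0.055) and FUBP1 without RBM47-OE replicate 3 (−0.049 to 0.166). Under the GC offset, without NC replicates 1, 2 and 3 and then RBM47-OE replicates 1, 2 and 3, ZFP36 had 0.084, 0.095, 0.134, 0.104, 0.034 and 0.175, ZFP36L2 had 0.063, 0.089, 0.074, 0.112, 0.084 and 0.035, TIAL1 had −0.095, −0.093, −0.104, −0.120, −0.075 and −0.101, and FUBP1 had −0.299, −0.269, −0.258, −0.303, −0.172 and −0.361. TIA1 turned without NC replicates 1 and 2 (−0.017 and −0.064) and RBM47-OE replicates 1 and 3 (−0.049 and −0.040), and PUM3 without RBM47-OE replicate 3 (−0.075).

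Leaving out 1 library gave 1 to 3 of the 9 higher and 1 to 2 lower, paralogs 0 to 3 higher, other binders 9 to 15 and 5 to 16, effectors 8 to 15 and 3 to 8, AU-rich targets 8 to 12 and 12 to 19, Pumilio targets 8 to 12 and 1 to 3, and differences of medians 0.35 to 0.50, 0.24 to 0.36 and 0.22 to 0.32. Under the GC offset these ranges were 0 to 2 and 0 to 1 of the 9, 0 to 1 paralogs each way, 3 to 5 and 4 to 6 binders, 1 to 3 and 4 to 8 effectors, 1 to 11 and 8 to 11 AU-rich targets, and 0 to 2 and 3 to 5 Pumilio targets. The causes of these differences were not tested, and no shares over all genes were counted with a library left out. Each setting listed in the methods was run.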

Other observations

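Over the 6 libraries, the genes whose log2 CPM followed PUM2 most closely were UBA2 (Pearson r = 0.999), an activating subunit of the SUMO pathway, ATL2 (0.999), which shapes the endoplasmic reticulum, and TBC1D15 (0.998), a GTPase-activating protein. They rose by 0.36, 0.48 and 0.58 on the log2 scale, beside 0.46 for PUM2. KHSRP was followed most closely by EMC10 (1.00), FLNC (1.00) and SART1 (0.999), which fell by 0.30, 0.41 and 0.30. These are descriptions over libraries of 2 groups, and 1129 genes had an r over 0.95 with PUM2 and 1222 with KHSRP. The 3 genes near PUM2 had exonic GC contents of 36.4% to 44.2%, and the 3 near KHSRP 56.7% to 62.3%.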
